A study of Mus musculus with 20 samples.

Results

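Transcript usage was compared between Tnfr2-/- and WT colonoids in 8330 genes, out of 35240 gene names in the deposited table. A gene entered where its transcripts summed to a mean signal of 5 or more over the 20 libraries and where 2 or more of its transcripts each had a mean of 1 or more. The signal is TPM, a transcript abundance corrected for length and scaled to a fixed total per library, divided by a size factor for each library by the authors. The measure was the share of each transcript in the sum of its gene, in percent, for 33733 transcripts. These genes held a median of 77.7% of the signal of a library.

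Colonoids were grown from colonic crypts of wild-type C57BL/6 mice (WT) and of mice that lack TNFR2 in the whole body (Tnfr2-/-, line B6.129S2-Tnfrsf1b tm1Mwm/J), embedded in Matrigel under IntestiCult medium, with no further treatment. They were collected at 5 times after the last passage, on day 1, day 2, day 3, day 5 and day 7 (days post passage, DPP). Each genotype had 10 libraries from 2 mice, 1 library per mouse and day, read as stranded single-end RNA-seq of 75 bases. The series' notes give 2 mice per genotype, and the replicate number of a library was taken to name its mouse on all 5 days, which the labels do not state outright. Tnfrsf1b, which encodes TNFR2, had a signal of 2.71 to 11.4 in Tnfr2-/- and of 11.1 to 21.9 in WT libraries (log2 difference -1.35, SE 0.17, adjusted p = 9.72e-05 by limma). It had a single measured transcript and so could not show a change in usage.

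Most mouse genes give several transcripts, through alternative promoters, exon choice or polyadenylation sites. Some transcripts encode a different protein, some keep an intron or carry an early stop codon and are held in the nucleus or degraded. A gene can therefore change which transcript it makes without changing its summed level. The share separates these quantities, because it does not depend on how much of the gene is present. Among the transcripts tested, 20341 were annotated as protein coding, 6158 as retaining an intron, 4448 as processed transcripts without a coding frame and 2397 as targets of nonsense-mediated decay. The median gene had 3 tested transcripts, and 142 genes had tested transcripts under more than 1 Ensembl gene ID.

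All 8 markers of colonic epithelium (Epcam, Krt8, Krt18, Krt19, Cdh1, Vil1, Cdx1 and Cdx2) were measured, with a summed signal of 12730 to 19620 in Tnfr2-/- and 11330 to 19140 in WT libraries. The 10 fibroblast markers were all measured as well, at 3148 to 8594 in Tnfr2-/- and 1242 to 4296 in WT. Of 4 immune markers, Ptprc and Cd3e had a mean under 1, and the 4 together gave 15.5 to 45.1 in Tnfr2-/- and 8.60 to 16.8 in WT. Of the endothelial pair, Cdh5 was under 1. The 5 goblet cell markers summed to 3.46 to 174 and 2.36 to 1315, and the 4 absorptive markers to 1.62 to 22.1 and 3.99 to 818, respectively. At gene level, 2 of the 8 epithelial, 3 of the 10 fibroblast and 1 of the 4 immune markers were called higher in Tnfr2-/-, and 1 goblet and 1 absorptive marker lower, where 4.51% of all genes tested were higher and 3.09% lower. Fewer cells of a type and less RNA per cell cannot be told apart in these bulk libraries. The part of cell composition in the share differences was not tested.

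Few transcripts were called for a changed share. By limma with day as a factor, 5 of 33733 transcripts (0.0148%) passed an adjusted p of 0.05, of which 2 were higher and 3 lower in Tnfr2-/-. They belonged to 3 genes, Rpl34, Cisd2 and Ube2d3. This fit took the libraries of a mouse as separate samples. On mouse means, 2 against 2, limma called 0 transcripts with 2271 at an unadjusted p under 0.05, and without 1 mouse it called 2 (either Tnfr2-/- mouse), 1 (WT mouse 1) or 7 (WT mouse 2). All 3 genes had a shift of 10 percentage points or more. Only Ube2d3 combined its shift with a gene level that was not called and whose 95% interval lay within 0.5 on the log2 scale. At an unadjusted p under 0.05 there were 2387 transcripts (7.08%). A fit between the WT mice, with 5 libraries against 5, called 0 transcripts with 1712 (5.08%) at an unadjusted p under 0.05. Between the Tnfr2-/- mice, also 5 against 5, it called 0 with 1507 (4.47%). These fits had fewer libraries than the genotype test with 10 against 10. At gene level, 596 of the 8330 genes were called (7.15%), 350 higher and 246 lower. The fits of shares and of gene sums differ in precision and in number of tests. Their counts of calls do not show that usage changed less than gene level. The gene-level count was 317 with the mouse as a correlated block. Without Tnfr2-/- mouse 1 or mouse 2 it was 116 or 80. Without WT mouse 1 or mouse 2 it was 286 or 1185. Over all 13539 genes tested at gene level, 7.6% were called, 4.51% higher and 3.09% lower in Tnfr2-/-, so that the share among genes with several transcripts was near that of all genes.

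**Figure D1:**
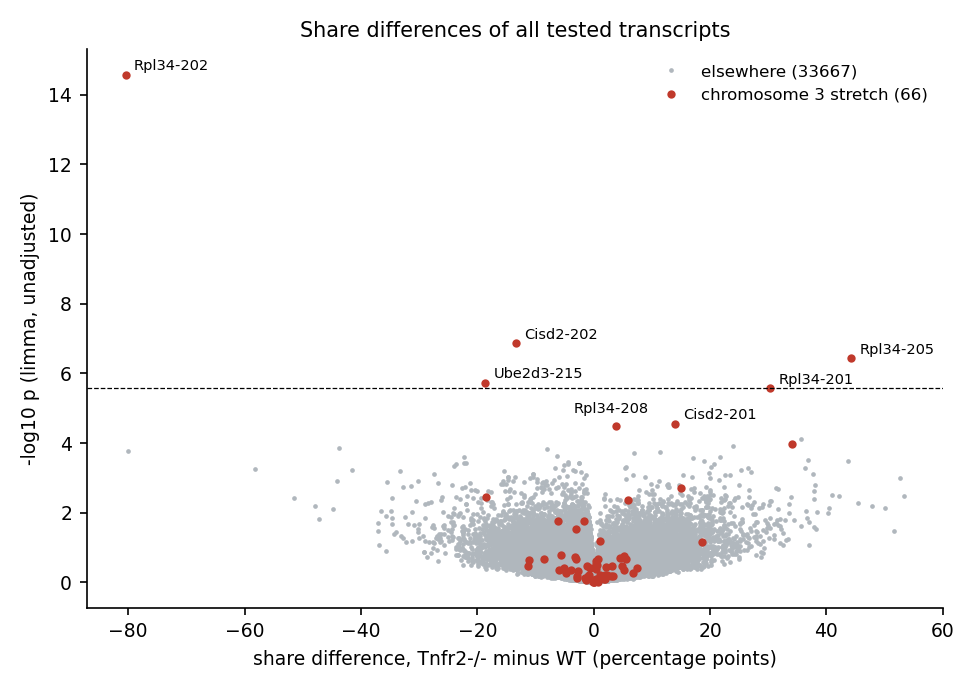
Share difference of each of the 33733 tested transcripts (x axis, Tnfr2-/- minus WT, percentage points) against its unadjusted limma p (y axis, -log10). Red points are the 66 transcripts that start between 130 and 136 Mb of chromosome 3, and the dashed line is at the called transcript of highest p: the 5 points on or above it are all red.

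The 3 genes lay within 4.74 Mb of each other on chromosome 3 (GRCm38). Rpl34 is at chr3:130726831-130730398 on the minus strand, Cisd2 at chr3:135406412-135423925 on the minus strand and Ube2d3 at chr3:135438149-135468198 on the plus strand. The stretch from 130 to 136 Mb held 16 of the 8330 genes (0.192%) and 66 tested transcripts, of which 14 (21.2%) were at an unadjusted p under 0.05. On the rest of chromosome 3 this was 112 of 1672 transcripts (6.7%), and for whole chromosomes with 200 or more tested transcripts the share ran from 6.04% to 8.85%. The stretch was chosen after the calls were seen, so these counts describe it and do not test it. Tnfrsf1b itself is on chromosome 4 (chr4:145213463-145246870). Within 10 Mb of it, 0 of 450 transcripts in 113 other genes were called and 28 (6.22%) were at an unadjusted p under 0.05. At gene level, 8 of these 113 genes were called higher in Tnfr2-/- and 4 lower, where 4.51% of all genes tested were higher and 3.09% lower.

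**Figure D2:**
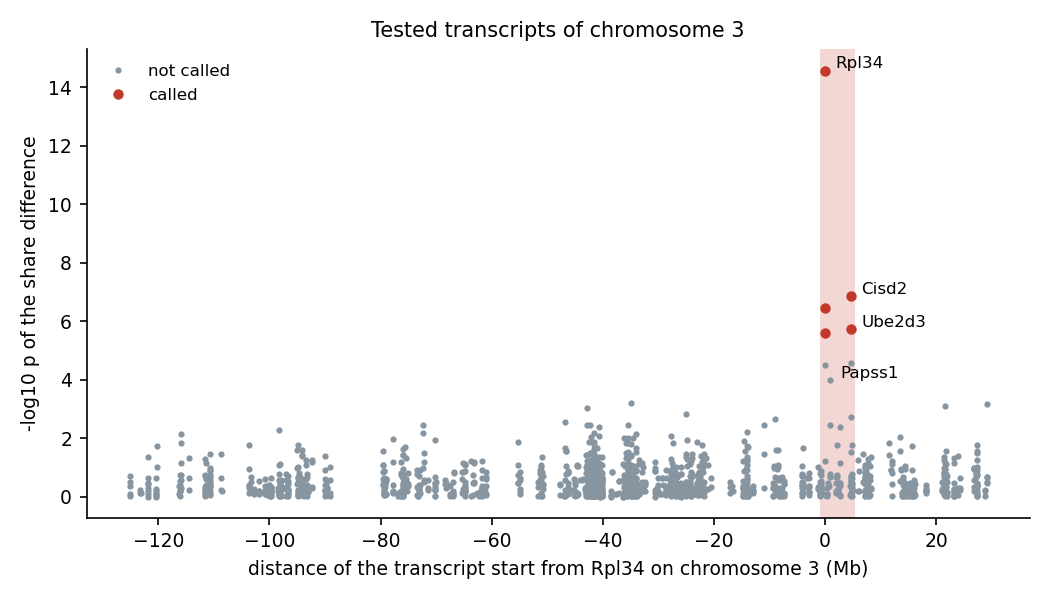
Unadjusted limma p of the share difference (y axis, -log10) of the 1738 tested transcripts of chromosome 3 by the distance of their start from Rpl34 (x axis, Mb), with the 130 to 136 Mb stretch shaded. The 5 called transcripts (red) and the Papss1 transcript of lowest p lie in the shaded stretch, near 0 and near 5 Mb.

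Rpl34 encodes a protein of the large ribosomal subunit. Its coding transcripts Rpl34-202, Rpl34-205 and Rpl34-201 have 5 exons each, with first exons of 81, 133 and 217 bases. Rpl34-202, the main WT transcript, had a signal of 0 in all 10 Tnfr2-/- libraries (a signal under 0.01 is given as 0 throughout), whereas in WT it ranged from 684.7 to 1159 with a median of 936.2. Its share in WT was 65.4% at the lowest, 80.1% at the median and 94.8% at the highest. The genotypes did not overlap on any of the 5 days. The difference was -80.5 percentage points (SE 2.73, adjusted p = 8.91e-11), and the shares were 80.3% and 80.6% as means of the WT mice.

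The coding sequence of Rpl34-202 has a near copy elsewhere, the processed pseudogene Rpl34-ps1 (chr6:71124610-71124963, plus strand). Over 354 bases they differ at 2 positions, T132C and C318G, counted from the first base of the coding sequence with the Rpl34-202 base first. Both positions are shown, each with 25 bases on either side and the differing base in capitals, because only these letters separate reads of the coding sequence. The sequences are from GENCODE M21.

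Rpl34-202, bases 107 to 157: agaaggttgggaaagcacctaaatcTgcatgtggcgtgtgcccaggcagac
Rpl34-ps1, bases 107 to 157: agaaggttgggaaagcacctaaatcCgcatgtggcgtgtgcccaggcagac
Rpl34-202, bases 293 to 343: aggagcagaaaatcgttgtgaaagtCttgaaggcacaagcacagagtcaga
Rpl34-ps1, bases 293 to 343: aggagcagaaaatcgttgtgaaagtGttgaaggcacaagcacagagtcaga

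Of 406 windows of 75 bases (1 read) along Rpl34-202, 51 occur in no other transcript of the annotation, 355 occur in another Rpl34 transcript and 168 in Rpl34-ps1. Rpl34-ps1 has no window of its own among 280, of which 204 also occur in another gene, Gm10154 (mean signal 2.64 in Tnfr2-/- and 0.53 in WT). Its signal went the opposite way to that of Rpl34-202. It was 966.8 at the lowest, 1634 at the median and 2171 at the highest in Tnfr2-/-, and it was 0 in 9 of 10 WT libraries, with 73.4 in the other. Rpl34 and Rpl34-ps1 together gave 1696 ± 296 in Tnfr2-/- and 1188 ± 107 in WT (SD, n = 10 libraries each), a ratio of 1.43 (exact permutation of libraries within day, two-sided p = 0.000514). The signal is corrected for length, and Rpl34-ps1 has 354 bases where Rpl34-202 has 480. This sum therefore depends on which of them reads were credited to. Rpl34 alone gave 108 ± 31.6 and 1181 ± 119. The gene-level difference of Rpl34 (log2 -3.49, SE 0.15, adjusted p = 1.11e-10) and its share differences are given as uncertain, since the 168 windows shared with Rpl34-ps1 do not separate the loci. How reads were divided between them was not tested.

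The other Rpl34 transcripts had larger shares in Tnfr2-/-. Rpl34-205 rose from 12.2% ± 6.73 in WT to 56.5% ± 14.2 in Tnfr2-/- (SD, n = 10), a difference of 44.3 points (SE 5.34, adjusted p = 0.00405). It was not called without Tnfr2-/- mouse 2 (adjusted p = 0.153) or either WT mouse (0.283 without mouse 1 and 0.187 without mouse 2). Rpl34-201 rose from 6.33% ± 2.06 to 36.7% ± 11.8, by 30.4 points (SE 4.27, adjusted p = 0.0173). This call was lost in 15 of 24 leave-outs of a library or mouse, with adjusted p up to 0.435 and a size of 27.0 to 33.7 points. Rpl34-208 stood at 0.54% ± 0.136 and 4.32% ± 2.03 and was not called (adjusted p = 0.154), although its ranges of 0.293% to 0.822% and 1.58% to 9.06% did not overlap either. Rpl34-208 was called on the log2 odds scale (adjusted p = 1.22e-05) and without the day 1 library of Tnfr2-/- mouse 1 (adjusted p = 0.0277). The signals of Rpl34-205 and Rpl34-201 did not rise with their shares. Rpl34-205 had a mean signal of 63.6 in Tnfr2-/- and 143.5 in WT, and Rpl34-201 of 37.4 and 75.7. Within Rpl34 without Rpl34-202, Rpl34-205 made up 56.5% ± 14.2 in Tnfr2-/- and 58.9% ± 12.7 in WT, and the ranges overlapped.

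**Figure D3:**
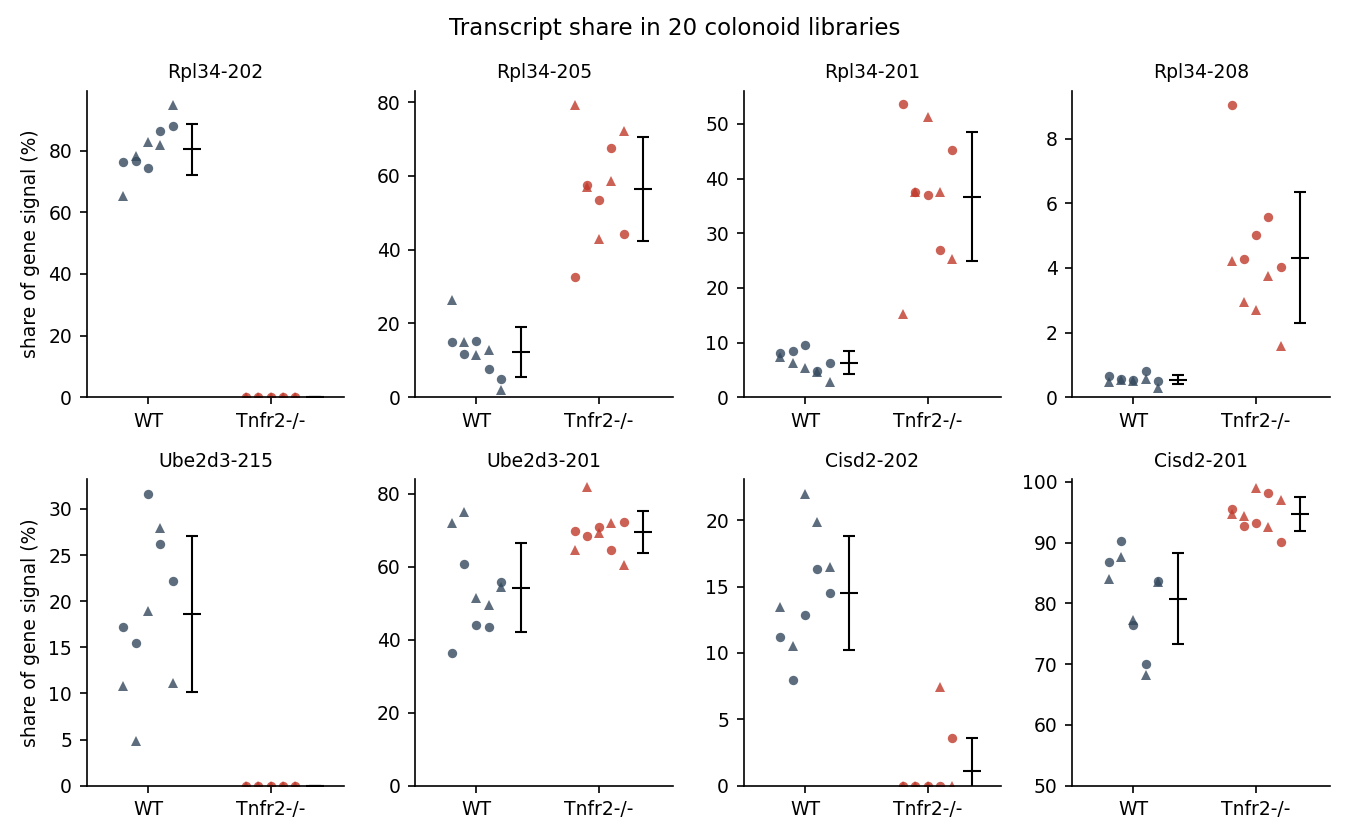
Share of a transcript in the signal of its gene (y axis, percent) in 10 WT and 10 Tnfr2-/- libraries (x axis) for 8 transcripts of the 3 called genes; points run from day 1 on the left to day 7 on the right, circles are mouse 1 and triangles mouse 2 of each genotype, and bars give mean and SD. Rpl34-202 and Ube2d3-215 sit at 0 in all Tnfr2-/- libraries, and the Cisd2-201 axis starts at 50%.

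Ube2d3 encodes an E2 enzyme that passes ubiquitin to target proteins. Over all 20 libraries it was the single gene with a shift in usage and no call at gene level. The day 2 library of WT mouse 2 decided that its gene level was not called. With the p-values of each gene's transcripts combined by the Simes method, 2 genes were called and Ube2d3 was not among them. Ube2d3-215 (chr3:135438747-135455249, 3 exons, 343 bases) had a signal of 0 in all 10 Tnfr2-/- libraries, and of 14.2, 91.2 and 151 at the lowest, median and highest of the WT libraries. Its WT share ran from 4.86% to 31.7% with a median of 18.1%. WT mouse 1 averaged 22.6% and WT mouse 2 averaged 14.7%. The difference was -18.6 points (SE 2.55, adjusted p = 0.0154), and the genotypes were apart on all 5 days. Leaving out the Tnfr2-/- library of day 3 from mouse 1 or from mouse 2, or that of day 7 from mouse 1, put Ube2d3-215 just outside the threshold (adjusted p = 0.0501, 0.0504 and 0.0506). It was also not called without Tnfr2-/- mouse 1 (adjusted p = 0.437), Tnfr2-/- mouse 2 (0.661) or WT mouse 1 (0.248). Its size stayed between -22.6 and -14.7 points in these and the other leave-outs.

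Ube2d3-215 is a short model with a first exon of 124 bases, and 124 of its bases lie outside the exons of Ube2d3-201. Its annotated coding part of 88 bases is a stretch of the start of the Ube2d3-201 coding sequence, which is 444 bases long with its stop codon. It is given because it is all the protein-coding sequence that the model holds, and it contains no base that sets it apart from the main transcript.

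Ube2d3-215, coding bases 1 to 88: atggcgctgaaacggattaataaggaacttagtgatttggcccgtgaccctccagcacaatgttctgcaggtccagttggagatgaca

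Of 269 read-length windows of Ube2d3-215, 79 occur in no other annotated transcript. Ube2d3-201, the main transcript with 8 exons, ranged from 60.6% to 81.8% in Tnfr2-/- and from 36.4% to 74.96% in WT, so that the genotypes overlapped. Its difference of 15.1 points was not called (SE 4.06, adjusted p = 0.527). Ube2d3-204 stood at 16.2% ± 7.00 in Tnfr2-/- and 11.7% ± 8.79 in WT. Ube2d3-216 was at 0 in all Tnfr2-/- libraries and in 4 of the WT libraries, with up to 9.80% in the others (adjusted p = 0.679). Within Ube2d3 without Ube2d3-215, Ube2d3-201 made up 69.4% ± 5.75 in Tnfr2-/- and 66.4% ± 10.6 in WT.

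The summed signal of Ube2d3 was 357.4 to 423.6 in Tnfr2-/- and 292.5 to 521.0 in WT, and the ranges overlapped. The log2 difference was -0.18 (95% interval -0.34 to -0.01, adjusted p = 0.181 by limma). The interval lies below 0, and the log2 difference was at an unadjusted p of 0.0344. Without the day 2 library of WT mouse 2, which had the lowest WT sum, the gene level of Ube2d3 was called as lower (log2 -0.24, 95% interval -0.36 to -0.12, adjusted p = 0.0178 by limma), with the share of Ube2d3-215 still called. It was also called without WT mouse 2 altogether (log2 -0.26, adjusted p = 0.0133 by limma). Without Ube2d3-215, Ube2d3 gave 393.7 ± 22.9 in Tnfr2-/- and 363.6 ± 53.0 in WT (SD, n = 10).

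Cisd2 encodes an iron-sulfur protein of the endoplasmic reticulum and the outer mitochondrial membrane. Cisd2-202 had a signal of 0 in 8 of 10 Tnfr2-/- libraries and of 1.90, 3.37 and 5.74 at the lowest, median and highest of WT. Its WT share was 7.98% at the lowest, 13.99% at the median and 21.9% at the highest, against at most 7.45% in Tnfr2-/-. The difference was -13.4 points (SE 1.499, adjusted p = 0.00225), and it was not called without Tnfr2-/- mouse 1 (adjusted p = 0.364), Tnfr2-/- mouse 2 (0.378) or WT mouse 1 (0.0504). Cisd2-201, the longer form, made up 90.0% to 98.9% in Tnfr2-/- and 68.2% to 90.3% in WT, and its 13.9 points were not called (SE 2.40, adjusted p = 0.154). The gene as a whole was lower in Tnfr2-/-, at 15.8 ± 2.68 against 25.1 ± 3.39 (log2 -0.64, SE 0.10, adjusted p = 0.00117). Both transcripts had lower means in Tnfr2-/-, Cisd2-201 at 15.0 against 20.1.

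The Cisd2 transcripts end in different coding sequences. They share the first 318 coding bases, after which Cisd2-201 goes on into another exon and Cisd2-202 reads on to an early stop. Their ends are shown from base 289 to the stop codon, with the part that is not shared in capitals. The coding sequences hold 135 and 108 codons without the stop.

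Cisd2-201, coding bases 289 to 408: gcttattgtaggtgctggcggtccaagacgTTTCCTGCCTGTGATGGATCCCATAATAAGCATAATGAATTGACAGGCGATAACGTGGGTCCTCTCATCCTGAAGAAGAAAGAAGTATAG
Cisd2-202, coding bases 289 to 327: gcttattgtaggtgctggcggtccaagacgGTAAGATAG

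Most read-length windows separate these transcripts from other annotated ones: 999 of 1289 windows of Cisd2-202 and 2997 of 3287 of Cisd2-201 occur in no other annotated transcript. The search did not cover unspliced RNA.

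Shares that did not overlap between genotypes were as rare as calls. Among 33594 transcripts of genes with signal in every library, 7 (0.0208%) had all 10 Tnfr2-/- shares on 1 side of all 10 WT shares. The other 139 of the 33733 tested belonged to genes without signal in at least 1 library and were not examined. The 7 were the 4 Rpl34 transcripts, Ube2d3-215, Cisd2-202 and Miga1-202, all on chromosome 3. Miga1 encodes mitoguardin, a factor of mitochondrial fusion. Miga1-202 (chr3:152273849-152340407, minus strand) fell outside the stretch, was a minor form and was not called (2.17% ± 0.677 in WT, 0.91% ± 0.321 in Tnfr2-/-, adjusted p = 0.484). The signal of Miga1-202 was 4.17 in WT and 4.10 in Tnfr2-/-, while Miga1 as a whole was higher in Tnfr2-/- (465.5 ± 71.6 against 199 ± 40.8, log2 1.23, SE 0.08, adjusted p = 1.78e-08).

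Papss1, which encodes an enzyme that makes the sulfate donor of the cell, is the fourth gene of the stretch among the lowest p. Papss1-201 (chr3:131564768-131643671) stood at 76.8%, 84.5% and 94.7% at the lowest, median and highest of Tnfr2-/-, and at 0%, 56.3% and 77.9% in WT. Its difference of 34.2 points was not called (SE 6.66, adjusted p = 0.385), though the libraries were apart within each of the 5 days. The short form Papss1-202 stood at 6.63% ± 8.74 in Tnfr2-/- and 25.2% ± 14.8 in WT (adjusted p = 0.594). The gene level was 54.9 ± 10.3 and 61.9 ± 11.2 (log2 -0.17, adjusted p = 0.192).

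**Figure D4:**
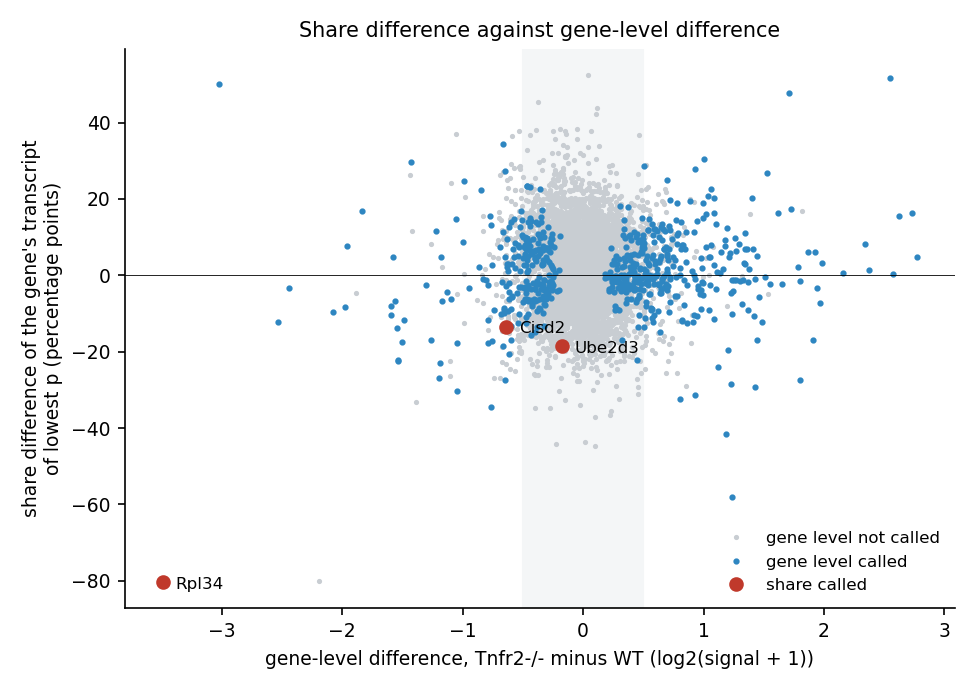
For each of the 8330 genes, the share difference of its transcript of lowest p (y axis, percentage points) against the gene-level difference (x axis, log2(signal + 1), Tnfr2-/- minus WT). Of the 3 genes with a called share (red), only Ube2d3 lies inside the grey band of -0.5 to 0.5 without a gene-level call; blue points are genes called at gene level without a called share.

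Of the 596 genes called at gene level, 2 (Rpl34 and Cisd2) had a called transcript, as did 3 of all 8330 genes. In 99 of the 596, the 95% interval of each tested transcript lay within 10 points of 0, against 1050 of all 8330 genes (12.6%). Conversely, 905 genes had a transcript with a difference of 10 points or more at an unadjusted p under 0.05, and 427 of them had no gene-level call and a gene-level interval within 0.5, as did 5190 of all 8330 genes. Only Ube2d3 among the 427 had a transcript that passed the adjustment. The most abundant transcript by mean share differed between the genotypes in 949 genes (11.4%), of which 1, Rpl34, had a called transcript.

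Among the 20 transcripts of lowest p, 15 were not called, with adjusted p from 0.154 to 0.445 and sizes from 3.78 to 80 points. Spopl encodes an adaptor of cullin ubiquitin ligases. Spopl-203 was at 27.8%, 57.9% and 91.4% at the lowest, median and highest of Tnfr2-/- and at 7.67%, 20.2% and 33.1% in WT (35.7 points, SE 6.76, adjusted p = 0.32). The genotypes overlapped between 27.8% and 33.1%, with the libraries apart within each day. Without the day 5 library of Tnfr2-/- mouse 2, Spopl-203 was called (39.98 points, adjusted p = 0.0458). Spopl-201 stood the opposite way, at 21.6% ± 13.9 in Tnfr2-/- and 45.5% ± 11.5 in WT. Fhod1-201, of an actin-organising formin, was at 81.7% ± 8.14 and 57.9% ± 12.1 (23.9 points, SE 4.73, adjusted p = 0.409). Cnot6-203, of a subunit that shortens poly(A) tails, was at 55.0% ± 5.44 and 43.5% ± 3.53 (adjusted p = 0.422), with mouse means of 52.6% and 57.4% against 42.1% and 45.0%. Otub1-201, of a deubiquitinating enzyme, was at 71.7% ± 7.63 and 54.6% ± 9.18 (adjusted p = 0.445). Ehd4-201, of an endocytic ATPase, was at 84.8% ± 10.1 and 63.1% ± 14.1 (adjusted p = 0.445). Mtf1-201, of the metal-responsive transcription factor, was at 50.2% ± 20.8 and 13.3% ± 17.2 (adjusted p = 0.445).

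Some differences among the 20 transcripts of lowest p rested on little signal. Zg16-202, of a lectin secreted by goblet cells, was at 0 in all 10 Tnfr2-/- libraries and at 0 in 3 of the WT libraries, with a WT maximum of 89.7. Its difference of -80.0 points (SE 13.6) was not called (adjusted p = 0.422). It was called without the day 5 library of WT mouse 2 (adjusted p = 0.000292) and without WT mouse 2 altogether (0.00512). Zg16 as a whole was at 1.27 ± 1.75 in Tnfr2-/- and 23.9 ± 34.2 in WT, and its share could not be formed in libraries without signal. Ptpn6-210, of the phosphatase SHP-1, was at 5.02% ± 5.86 and 27.2% ± 15.2 (adjusted p = 0.445), with mean signals of 0.78 and 3.18. For Hddc3, a gene of a hydrolase family, Hddc3-208 was at 0 in all Tnfr2-/- libraries and at 7.94% ± 5.03 in WT (adjusted p = 0.422), with 2 WT libraries at 0, and was called without the day 5 library of WT mouse 2 (adjusted p = 0.0469).

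The precision of a share set what could be seen. The 95% interval of a share difference reached a median of 9.09 points to either side. For 13000 transcripts (38.5%) the whole interval lay within 10 points of 0, and for 5460 (16.2%) within 5 points. In genes with a mean signal of 5 to 10 the median was 19.8 points, and in genes at 100 or more it was 4.15 points. In 1050 genes (12.6%) each tested transcript had its interval within 10 points. In the other genes a shift of that size may not have been detectable at this precision.

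Lists of genes gave no called transcript beyond Rpl34. In splicing regulators, 60 of 61 listed genes had 493 tested transcripts, with 0 called by limma and 47 (9.53%) at an unadjusted p under 0.05, against 7.08% over all transcripts. Their median absolute difference was 1.17 points, against 2.79 over all, and 389 of the 493 (78.9%) had an interval within 10 points. The lowest p belonged to Srpk2-210, of a kinase of splicing factors, at -15.4 points (SE 3.63, adjusted p = 0.468), followed by Luc7l-206 at 12.9 points (SE 3.47, adjusted p = 0.527). At gene level, 2 of the 60 splicing regulators were called higher and 6 lower, where 4.51% of all genes tested were higher and 3.09% lower.

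Genes with known epithelial and mesenchymal isoforms, such as Cd44, had 247 tested transcripts in 35 of 38 genes, with 0 called and 18 (7.29%) at an unadjusted p under 0.05. Cd44-209, a form that keeps an intron, stood at 3.36% ± 1.42 in WT and differed by -1.44 points (SE 0.44, adjusted p = 0.594). Tpm1-213, of a tropomyosin, differed by 8.33 points (SE 2.66, adjusted p = 0.6). In TNF receptor and NF-kappaB signalling, 38 of 51 genes had 178 tested transcripts, with 0 called and 17 (9.55%) at an unadjusted p under 0.05. Tnfrsf9-202, of the costimulatory receptor 4-1BB, had the lowest p with 16.4 points (SE 4.82, adjusted p = 0.594), in a gene that was higher at gene level (log2 2.73, adjusted p = 0.000422). Tnfrsf9 lies within 10 Mb of Tnfrsf1b on chromosome 4, the locus altered in Tnfr2-/- mice. The part of this position in its difference was not tested. At gene level 6 of the 38 genes were called, all higher, against the same 4.51% of all genes.

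In cell cycle and growth control, 28 of 29 genes had 118 tested transcripts, with 0 called and 8 (6.78%) at an unadjusted p under 0.05. Cdk4-207, which keeps an intron of the G1 kinase gene, differed by -1.64 points (SE 0.45, adjusted p = 0.549). Yap1-202, of the transcriptional coactivator of growth, differed by -11.9 points (SE 4.40, adjusted p = 0.652). The 76 cytosolic ribosomal protein genes had 405 tested transcripts, of which the 3 called were all of Rpl34 and 16 (3.95%) were at an unadjusted p under 0.05. Their intervals were narrow, with 345 of 405 (85.2%) within 10 points and a median difference of 0.296 points in size.

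Transcripts that keep an intron made up less of the signal in Tnfr2-/-. Their share of the summed signal of the 8330 genes was 7.47% at the lowest, 8.002% at the median and 8.67% at the highest in Tnfr2-/-, and 8.12%, 8.74% and 9.45% in WT. Across all days the genotypes overlapped, but within each of the 5 days both Tnfr2-/- libraries were below both WT libraries. The difference was -0.714 points (exact permutation within day over 7776 arrangements, two-sided p = 0.000257, the smallest these can give; adjusted over 4 transcript classes, 0.00103). The mouse means were 8.05% and 7.96% in Tnfr2-/- and 8.50% and 8.93% in WT, and 2 animals against 2 cannot reach a two-sided exact p of 0.05. This sum over genes was added after the data had been seen.

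**Figure D5:**
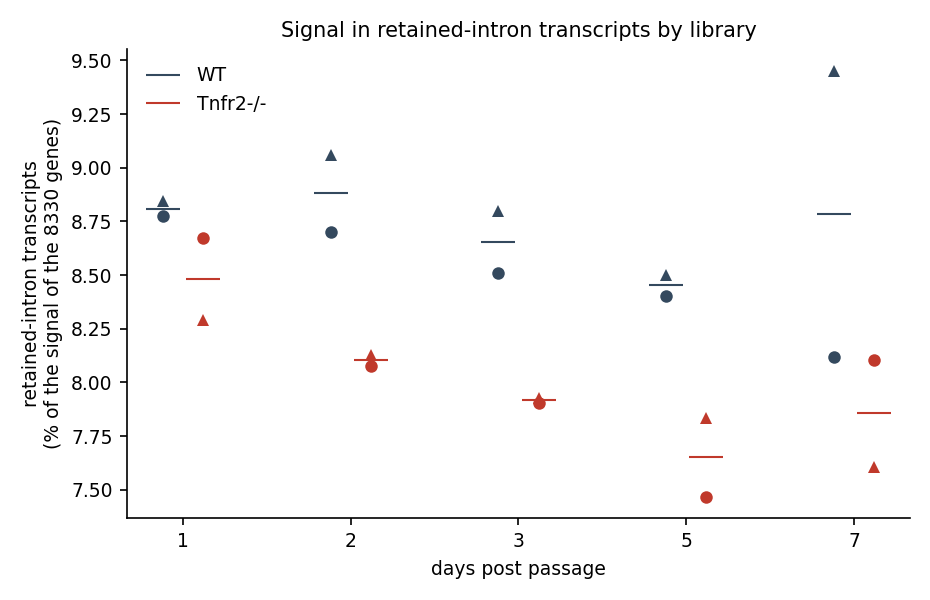
Share of the signal of the 8330 genes in transcripts annotated as retaining an intron (y axis, percent, not starting at 0) by days post passage (x axis), with 1 point per library, circles for mouse 1 and triangles for mouse 2, and dashes at the mean of each pair. On each day both Tnfr2-/- points (red) lie below both WT points (dark blue), with 8.10% against 8.12% as the closest pair on day 7.

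Protein-coding transcripts made up 77.0% ± 0.54 in Tnfr2-/- and 76.1% ± 0.673 in WT (SD, n = 10; 0.884 points, exact permutation p = 0.0036, adjusted 0.0072). Targets of nonsense-mediated decay stood at 4.08% ± 0.144 and 4.20% ± 0.206 (exact permutation p = 0.163), and processed transcripts at 10.3% ± 0.324 and 10.3% ± 0.359 (exact permutation p = 0.781). Of the 6158 transcripts that keep an intron, 3952 (64.2%) had a lower share in Tnfr2-/-, against 48.3% of coding and 52.3% of all tested transcripts. At an unadjusted p under 0.05, 437 were lower and 102 higher, where coding transcripts had 588 lower and 788 higher.

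Gene by gene the same difference was not resolved. In 3510 genes with a measured coding and a measured intron-keeping transcript, the summed share of the latter was lower in 2318 (66%), with a median difference of -1.06 points and quartiles of -4.00 and 0.957. By limma, 0 of 3510 were called, with 355 at an unadjusted p under 0.05, where 7.08% of all tested transcripts had such a p. The lowest p belonged to Napg, of vesicle fusion, at 22.3% in WT and 3.69% in Tnfr2-/- (SE of the difference 3.51 points, adjusted p = 0.158). Aaas, of the nuclear pore, stood at 15.4% and 4.49% (SE 2.16, adjusted p = 0.158), and Ikbke, of an NF-kappaB pathway kinase, at 30.4% and 18.0% (SE 2.74, adjusted p = 0.18). The mitochondrially encoded genes, often read as a sign of RNA quality, held 4.34% to 5.57% of the library in Tnfr2-/- and 4.15% to 6.84% in WT. The part of RNA quality, unspliced RNA or the higher fibroblast markers in this difference was not tested.

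Whether the genotype difference in usage itself changed with time was tested as late (5 and 7 DPP) minus early (1, 2 and 3 DPP). By limma, 2 of 33712 transcripts (0.00593%) were called, with 1834 at an unadjusted p under 0.05. For the genotype difference over all days, 2387 of 33733 were at such a p. Leaving out 1 library gave 3 to 39 calls, with 39 without the day 5 library of WT mouse 2. Dusp16-203, of a phosphatase of stress kinases, was at 0% in early and 12.8% ± 13.2 in late Tnfr2-/- libraries, and at 8.07% ± 12.5 and 0.359% ± 0.717 in WT (n = 6 early and 4 late libraries per genotype; 20.5 points, SE 2.43, adjusted p = 0.042 by limma). The WT signal of Dusp16-203 lay in both day 3 libraries, with shares of 24.3% and 24.1%, apart from 1.43% in 1 day 7 library. Fam3c-202, of a secreted protein, was at 0% and 3.69% ± 1.17 in Tnfr2-/-, and at 2.19% ± 3.46 and 0% in WT (5.87 points, SE 0.70, adjusted p = 0.042 by limma). Both were at 0 in most libraries, 14 of 20 for each, and neither was called with the replicate number as a block. The 5 transcripts called for genotype had adjusted p of 0.9 to 1 here.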

How the data were processed

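RNA-seq was read from 20 libraries of mouse colonoids. Per the labels and the study's methods, reads were handled with CASAVA and quantified per transcript with kallisto and sleuth on mm10. The deposited values are a signal per transcript, TPM divided by a size factor for each library by the authors, with sums of 900655 to 1111080 per library. They carry no read counts. The study's methods give the reads per sample only as an approximate number, so the depth of each library could not be compared here, and precision was read from the spread between libraries. Kallisto divides reads that several transcripts share by a model, so that transcripts with few bases of their own exchange signal. Columns with the authors' own test results were not used.

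Of 113974 lines, 781 repeated another and were dropped, and 199 transcripts without a gene name (at most 0.0989% of a library) were left out. Transcripts were named from GENCODE M21 (GRCm38), which matched 99% of those tested. Shares were fitted with limma 3.58.1 (trended variance, R 4.3.3) on genotype with day as a factor, and gene sums as log2(signal + 1) in the same design over 13539 genes with a mean of 1 or more. P-values were adjusted by Benjamini-Hochberg over all features of a fit, with a threshold of 0.05. The replicate number in the labels was taken as the mouse of a genotype, and the libraries of a mouse were treated as separate samples. Alternatives that modelled a correlation among the libraries of 1 animal or averaged them, other scales and filters, and leave-outs are given below. Single values were compared by exact permutation of genotype within day (two-sided). Genes were named from calls, from the 20 lowest p and from gene lists. The rule for up to 20 shifted genes without a gene-level change returned 1 gene, Ube2d3, and the other genes of lowest p were added after their values were seen. Of the immune markers, 1 is not reported here. The genes and lists were chosen with earlier results of these data known.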

Additional observations from a re-analysis of the deposited data

Results flagged for a closer look

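In 22 groups of 10 shares examined, 1 held a library apart from the others. The share of Cisd2-202 in the day 5 library of Tnfr2-/- mouse 2 was 7.447%, with the next at 3.621% and the remaining 8 at 0. The late minus early difference of the genotype effect was past the threshold for Dusp16-203 (20.54 points) and Fam3c-202 (5.873 points), as given above. In the whole table, 3 transcripts were at 0 (a signal under 0.01) in all libraries of 1 genotype and above 0.01 in all of the other, and all lay on chromosome 3. Besides Rpl34-202 and Ube2d3-215 this was Gbp2b-201 (chr3:142594847-142619179, plus strand), of an interferon-induced guanylate-binding protein, with a mean signal of 4.141 ± 2.30 in Tnfr2-/- (SD, n = 10; lowest 1.74, highest 8.79) and listed at 0 in all 10 WT libraries. Gbp2b lay outside the 8330 genes, with no other measured transcript.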

How the results depend on the processing

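The 5 transcripts, 3 genes, 3 shifts of 10 points and 1 gene without a gene-level call became 4 to 7 transcripts and 2 to 4 genes under other scales, variance models and filters and by Ensembl ID. With 1 Simes p per gene there were 2 genes, without Ube2d3. With the mouse as a correlated block (estimated correlation -0.0381) there were 5 transcripts. On mouse means, 2 against 2, all of these counts were 0 by limma (2271 transcripts at an unadjusted p under 0.05), and without 130 to 136 Mb of chromosome 3, an alternative added after seeing the data, they were 0 as well, which follows from drawing the stretch around the calls. With a bound of 20 points 1 gene was left, and with a gene-level bound of 0.25 there was 0 without a gene-level change. Leaving out 1 library or mouse gave 1 to 7 transcripts, 1 to 6 genes, 1 to 6 shifts and 0 to 1 gene without a gene-level call, the lowest without WT mouse 1 (1 transcript) and the highest without WT mouse 2 (7 transcripts, a number also reached without its day 5 library). Gene-level calls numbered 317 with the mouse as a block and 80 to 1185 in leave-outs, with the lowest without Tnfr2-/- mouse 2 and the highest without WT mouse 2. The late minus early count of 2 became 1 on the arcsine scale and 3 to 39 in leave-outs, which leave a group with 1 library assumed to vary like the others. The cause of these changes was not tested. The retained-intron share kept its direction and its exact permutation p under 0.05 in all alternatives, at -0.93 to -0.499 points in leave-outs and -1.19 to -0.588 under the other settings, the former with genes weighted equally. Of 791 values for 23 named transcripts, 753 kept side and direction, 32 lost the threshold, 6 gained it and 0 turned.

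With the replicate number as a block the transcripts called were 5, the gene-level calls 713 and the late minus early calls 0. Libraries with the same number did not deviate together (correlations -0.00721 to 0.017 by day).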
